A study of Homo sapiens with 6 samples.

Results

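Cyclophilins are the peptidyl-prolyl isomerases that cyclosporin binds, and the 8 members described here are the human genes PPIA to PPIH. They were taken by symbol from the 40173 genes of the count table, and all 8 had enough counts to be tested among 15250 genes. The family was chosen by the counts of PPIB, which stood out as lower after FAM83H-AS1 silencing in these same libraries. The values of PPIB are therefore given as a description with no test. The other 7 members were taken by name, though the family was chosen with earlier results of these data known. A549 is a human lung adenocarcinoma cell line. One group, control, received a negative control siRNA, and the other, silenced, received an siRNA against the long noncoding RNA FAM83H-AS1, with 3 libraries per group from total RNA of cells harvested the day after transfection. Both groups are 1 cell line, nothing in the labels says whether the libraries came from separate cultures, and p-values measure only the spread between these libraries.

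A prolyl isomerase speeds the turn of the peptide bond before proline, a slow step in the folding of many proteins. The members differ in where they work and in the domains they carry beside the isomerase. PPIA (cyclophilin A) is the abundant cytosolic form, PPIB and PPIC enter the secretory pathway, PPIF sits in the mitochondrial matrix, PPID carries an added domain that binds HSP90, and PPIE, PPIG and PPIH work in the nucleus with the splicing machinery. PPIB is known in the endoplasmic reticulum (ER) for the complex with CRTAP and prolyl 3-hydroxylase that acts on collagen.

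Library totals ranged from 9738291 to 17742643 counts. FAM83H-AS1 itself fell from 15.9 ± 1.39 to 4.87 ± 0.617 CPM (SD, n = 3 each), where CPM are counts relative to library size after TMM scaling, and its groups did not overlap (log2 fold change -1.70, adjusted p = 7.99e-05 by edgeR). RNA5-8SP6, a ribosomal RNA pseudogene, took 3.22% of all counts in control replicate 3, which was also the deepest library, and 0.241% to 0.448% elsewhere. The epithelial keratins KRT8 (1594 to 2081 CPM) and KRT18 (951 to 1363 CPM) were abundant. EPCAM and CDH1, also epithelial, were at most 4.49 and 1.66 CPM, the lung epithelial factor NKX2-1 at most 1.17 CPM, the leukocyte marker PTPRC and the endothelial marker PECAM1 at most 1 and 2 counts, and the fibroblast collagen COL1A1 between 25.7 and 37.3 CPM. In bulk RNA, fewer cells of a kind and less RNA per cell cannot be told apart.

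PPIB was the member with the largest difference, and the end of its mRNA is shown first because it holds a sequence found in no annotated 3′-UTR of the other members. In GENCODE 29 on GRCh38, PPIB lies on chromosome 15 from 64155812 to 64163205, minus strand, and the 3′-UTR of its transcript ENST00000300026.3 has 211 bases. The word CCAATAA starts at base 170 of that UTR, and 35 bases follow it before the end of the transcript (chr15:64155836-64155864 for the stretch shown, minus strand). The capitals mark the word, which runs into AATAAA, the usual signal for poly(A) addition.
PPIB: accaacactgaCCAATAAaaaaaaatgtg

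For comparison, these are the poly(A) signals within the last 60 bases of 3 other members, with the signal AATAAA in capitals and up to 12 bases on each side.
PPIA (chr7:44803080-44803109, plus strand): gtgcaaggtggaAATAAAcatcaaacatct
PPIF (chr10:79355317-79355337, plus strand): aacctttttaatAATAAAtta
PPIH (chr1:42676724-42676753, plus strand): ttttcaactgtaAATAAAgtttttttgtat

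AATAAA stood near the end in 7 of the 8 members, and in the last 60 bases of PPIC neither it nor ATTAAA was found. CCAATAA was in an annotated 3′-UTR of 1 of the 8 members, PPIB, and of 1469 of the 11556 tested mRNAs with an annotated 3′-UTR (12.7%). With 8 members, 1 is near that background and is not read as a result about the family. The median log2 fold change after silencing was -0.08 for mRNAs with the word and 0.01 for those without it. The word had been singled out earlier because mRNAs with it were lower in these libraries, so that its presence in PPIB is a description and no independent finding. Of the 8 other tested genes with a cyclophilin domain, PPIL2 also holds it in a 3′-UTR. That 3′-UTR is not the one of ENST00000335025.12, the PPIL2 transcript used here.

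To set the members side by side, levels were divided by transcript length (RPKM, CPM per kb of the principal GENCODE 29 transcript). In the control cells PPIB ranked highest at 449 ± 22.9 RPKM, followed by PPIA at 229 ± 27.5, PPIF at 77.3 ± 1.85 and PPIE at 56.2 ± 3.66 (SD, n = 3 each). PPIH (50.6 ± 0.463), PPID (17.1 ± 2.06) and PPIG (4.67 ± 0.793) came after them (RPKM, SD, n = 3 each), with PPIC, from 11.7 to 13.8 RPKM, between PPID and PPIG. The ranges of neighbours in this order did not overlap among the control libraries. In the silenced cells PPIA (212 ± 11.8 RPKM, SD, n = 3) stood above PPIB (192 ± 7.11 RPKM, SD, n = 3), with ranges of 204 to 226 and 186 to 200 RPKM. There PPID, from 15.0 to 18.3 RPKM, and PPIC, from 15.1 to 16.4 RPKM, could not be separated. The order rests in part on the choice of transcript. Per kb of all annotated exons, the control mean of PPIE was 8.89 CPM, below the 12.4 CPM of PPID and the 26.3 CPM of PPIH, and the silenced means of PPIA and PPIB were 107 and 109 CPM, in the opposite order.

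The level of PPIA rests on how reads of its copies were counted. The table lists 37 PPIA pseudogenes and PPIAL4 genes, of which PPIAP22 alone held 79.4% of the counts of all copies. PPIAP22 had 72.6, 75.5 and 82.4 counts per 100 PPIA counts in the control cells and 73.1, 79.4 and 75.2 in the silenced cells. The groups overlapped, and PPIAP22 had a log2 fold change of -0.12 (adjusted p = 0.294 by edgeR). Of the 10 copies with enough counts to be tested, PPIAP29 rose by 0.39 on the log2 scale (adjusted p = 0.0388), and PPIAP31 and PPIAP18 fell by 0.69 and 1.39 (adjusted p = 0.0166 and 0.0190 by edgeR). They held 3039, 1196 and 194 counts over the 6 libraries, against 27308 for PPIAP22. PPIAP8, with 1388 counts, had a log2 fold change of -1.42 and missed the threshold (adjusted p = 0.0538 by edgeR). Its control counts were uneven, at 85, 272 and 707 for replicates 1, 2 and 3, against 65, 162 and 97 after silencing. Of all tested genes 17.0% passed, and the calls among so few copies are not read as a result about them. Whether these calls hold with a library left out was not tested. In the principal PPIA transcript, 19.1% of all stretches of 50 bases recur exactly in transcripts of other genes, and 16.0% in PPIAP22. With all copies added, PPIA reached 451 ± 32.0 CPM per kb (SD, n = 3) in the control cells, and its range of 414 to 475 took in that of PPIB, 423 to 465, so that which of the pair was higher in control cells cannot be told from these counts. In the silenced cells PPIA with its copies was at 411 ± 22.1 CPM per kb of the same transcript (SD, n = 3), with a range of 391 to 435 that lay above that of PPIB.

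**Figure D1:**
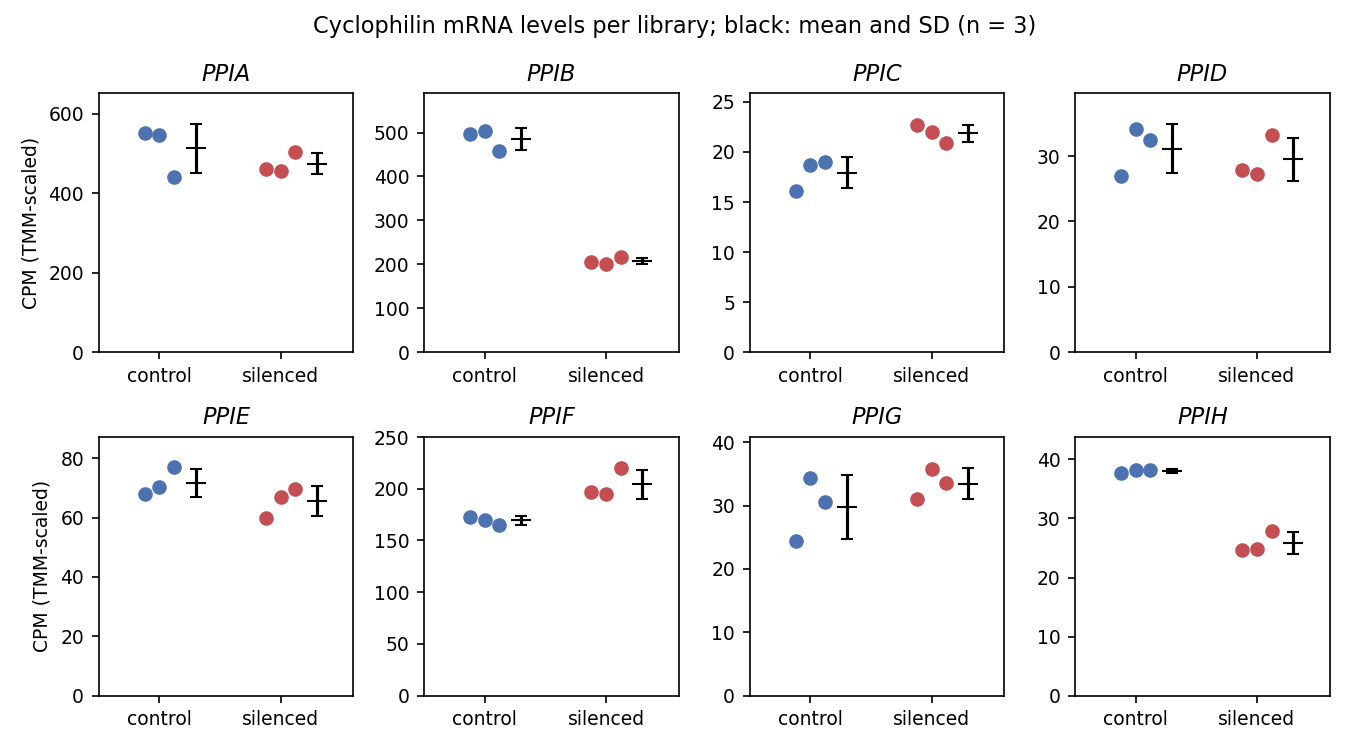
TMM-scaled CPM (vertical axes, from 0) of the 8 members in 3 control libraries (blue) and 3 silenced libraries (red), with mean and SD in black. The silenced points of PPIB, between 201 and 216 CPM, lie far below the control points, between 457 and 502 CPM, and the groups are also separate for PPIC, PPIF and PPIH.

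Among the secretory members, PPIB had 497, 502 and 457 CPM in control replicates 1, 2 and 3 and 205, 201 and 216 CPM in silenced replicates 1, 2 and 3. All silenced libraries were low and close together, and none came near a control library. The mean moved from 485 ± 24.8 to 207 ± 7.68 CPM (SD, n = 3 each), to 42.7% of the control level, a log2 fold change of -1.23 (standard error 0.0701). By this value PPIB ranked 152 of the 15250 tested genes, counted from the lowest. Within each library, which needs no scaling, PPIB had 90.2, 92.0 and 103 counts per 100 PPIA counts in the control cells and 44.5, 44.0 and 42.8 in the silenced cells. Its share of the counts of all 8 members went from 35.8% ± 0.384 to 19.5% ± 0.382 (SD, n = 3 each), and the share of PPIA from 37.7% ± 2.37 to 44.7% ± 0.244. That total includes PPIB, and the larger share of PPIA is no rise of PPIA itself. PPIA was at 513 ± 61.6 CPM in the control and 474 ± 26.5 CPM in the silenced libraries (SD, n = 3 each).

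PPIB overlaps SNX22, a sorting nexin gene on the opposite strand, and the annotated exons of both genes share 519 bases. Of the stretches of 50 bases in the PPIB transcript, 41.2% are also SNX22 sequence on the other strand. SNX22 had 25 counts over all 6 libraries, compared with 25565 for PPIB, and how the authors' counting treated strand and shared bases is not given in the sources used here.

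PPIC, the other secretory member, had 16.1, 18.7 and 19.0 CPM in the control libraries and 22.7, 22.0 and 20.9 CPM in the silenced libraries. Each silenced library lay above each control library, opposite to PPIB. The log2 fold change was 0.28 (standard error 0.104, 95% interval 0.05 to 0.51) and missed the threshold over all genes (adjusted p = 0.0925 by edgeR). PPIC shares 117 exon bases with SNX24 on the opposite strand, which rose by 0.48 on the log2 scale (adjusted p = 0.0159 by edgeR). Of the stretches of 50 bases in the principal PPIC transcript, 0.0751% recur in SNX24. Another 5.41% recur in AC106786.2, an antisense gene that shares 118 exon bases with PPIC. AC106786.2 was not found by symbol among the counted genes, and whether it was counted under another name is not known. The part of reads from either gene in the PPIC value was not tested. For each PPIC count, the control libraries had 30.8, 26.9 and 24.0 counts of PPIB and the silenced ones 9.06, 9.14 and 10.3.

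With edgeR and adjustment over all tested genes, 2 of the 7 members other than PPIB passed an adjusted p of 0.05, where 17.0% of all tested genes passed in either direction. PPIF was higher, like 8.75% of all genes, and PPIH lower, like 8.27%. None of the 7 passed a fold change of 2 as well, against 2.14% of all genes. PPIB, by which the family was chosen, is among the 0.997% of genes that were lower past both limits, and nothing is read from that. The groups did not overlap for 3 of the 7, PPIC, PPIF and PPIH, against 36.6% of all genes, and 1 of these 3, PPIH, was lower in every silenced library, against 17.5% of all genes. With 7 genes, these counts do not set the members apart from the background. The median log2 fold change of the 7 was -0.08, and that of all tested genes was -0.00067.

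PPIH encodes the cyclophilin of the U4/U6 small nuclear ribonucleoprotein, which joins the spliceosome. It had 37.6, 38.3 and 38.2 CPM in the control libraries and 24.6, 24.9 and 27.9 CPM in the silenced libraries. The control libraries were almost alike, and every silenced library lay well below them. PPIH fell from 38.03 ± 0.348 to 25.8 ± 1.86 CPM (SD, n = 3 each), to 67.9% of control, with a log2 fold change of -0.56 (standard error 0.0870, 95% interval -0.75 to -0.37, adjusted p = 0.00221 by edgeR). The call held with any 1 library left out, with log2 fold changes between -0.62 and -0.52. The antisense gene AC098484.4 overlaps 561 exon bases of PPIH in GENCODE 29, where 3.98% of the stretches of 50 bases of the principal PPIH transcript recur in other genes on either strand. Its pseudogenes PPIHP1 and PPIHP2 had 66 and 8 counts over all libraries, against 2352 for PPIH.

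PPIF encodes cyclophilin D, a mitochondrial matrix protein known as a regulator of the permeability transition pore. It had 173, 170 and 165 CPM in the control libraries and 197, 195 and 220 CPM in the silenced libraries. The control libraries were close together, and silenced replicate 3 was the highest library. PPIF rose from 169 ± 4.05 to 204 ± 14.2 CPM (SD, n = 3 each), to 121% of control, with a log2 fold change of 0.27 (standard error 0.0730, 95% interval 0.11 to 0.43, adjusted p = 0.0285 by edgeR). The call was lost without control replicate 2 (adjusted p = 0.0742), control replicate 3 (adjusted p = 0.0774), silenced replicate 1 (adjusted p = 0.0737) or silenced replicate 3 (adjusted p = 0.101, by edgeR in each case), with log2 fold changes of 0.21 to 0.30. No stretch of 50 bases of the PPIF transcript recurs in another gene. Relative to PPIA in the same library, PPIF had 31.4, 31.2 and 37.3 counts per 100 in the control cells and 42.7, 42.6 and 43.7 in the silenced cells. These ratios also carry the difference in PPIA itself, which had a log2 fold change of -0.11 (95% interval -0.31 to 0.09).

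**Figure D2:**
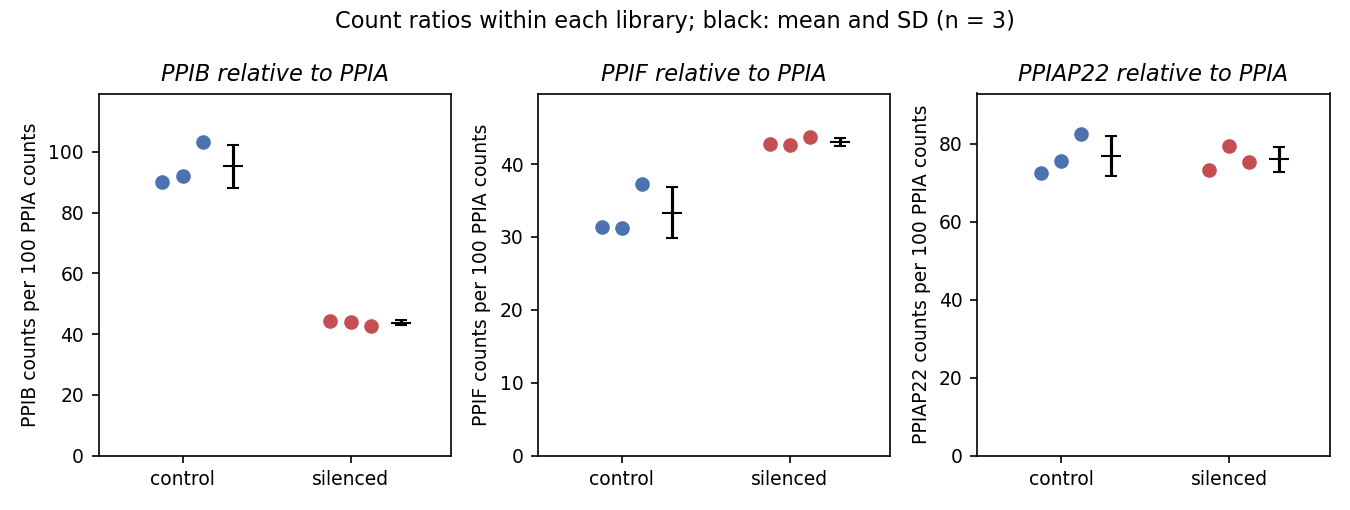
Counts of PPIB, PPIF and the pseudogene PPIAP22 per 100 PPIA counts in the same library (vertical axes, from 0), for 3 control (blue) and 3 silenced (red) libraries, with mean and SD in black. PPIB drops from 95.2 to 43.8 on average, PPIF goes from 33.3 to 43.0, and the PPIAP22 points of both groups overlap at means of 76.8 and 75.9.

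The remaining members, PPIA, PPID, PPIE and PPIG, had overlapping groups and missed the threshold. PPIA had 551, 546 and 442 CPM in the control libraries and 461, 457 and 505 CPM in the silenced libraries, so that control replicate 3 was the lowest library of all. Its log2 fold change was -0.11 (95% interval -0.31 to 0.09, adjusted p = 0.432 by edgeR), and -0.13 with the counts of its copies added (adjusted p = 0.264 by edgeR). Without control replicate 3 it was -0.21 (adjusted p = 0.103 by edgeR). PPIA is the form that binds cyclosporin in the cytosol to block calcineurin.

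PPID, the HSP90 co-chaperone, ranged from 26.9 to 34.1 CPM in the control and from 27.3 to 33.3 CPM in the silenced libraries, with a log2 fold change of -0.08 (95% interval -0.33 to 0.17). PPIE, an RNA-binding cyclophilin of the spliceosome, ranged from 68.0 to 77.0 and from 59.95 to 69.7 CPM, with a log2 fold change of -0.13 (95% interval -0.32 to 0.06). PPIG, a large nuclear cyclophilin with an arginine- and serine-rich tail, ranged from 24.4 to 34.4 and from 31.0 to 35.8 CPM, with a log2 fold change of 0.16 (95% interval -0.10 to 0.43). The adjusted p-values of these genes were 0.676, 0.317 and 0.385 by edgeR, and each interval takes in 0. PPID shares 490 exon bases with ETFDH on the opposite strand, which had a log2 fold change of -0.07. Of the stretches of 50 bases in the principal PPID transcript, 24.9% recur in ETFDH. ETFDH had 1870 counts over all libraries, against 2234 for PPID. The part of ETFDH reads in the PPID value was not tested. PPIE shares 80 exon bases with BMP8B, which rose by 0.73 on the log2 scale (adjusted p = 0.0158 by edgeR).

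Beyond the 8 members, 9 further genes with a cyclophilin domain were in the table, and 8 were tested, as PPIL6 had too few counts. PPIL1, a spliceosomal cyclophilin, had 43.5 ± 0.779 CPM in the control and 33.2 ± 2.27 CPM in the silenced libraries (SD, n = 3 each). It fell by 0.39 on the log2 scale (adjusted p = 0.0103 by edgeR) and missed the threshold without silenced replicate 1 (-0.33, adjusted p = 0.0557). The other 7 did not pass, with log2 fold changes from -0.18 for PPIL2 to 0.20 for PPIL4. Of all tested genes 17.0% passed in either direction and 8.27% were lower. With 8 genes, 1 call is near that background and is not read as a result about these genes. NKTR, a large cyclophilin first described on natural killer cells, had 0.18 (95% interval 0.02 to 0.35, adjusted p = 0.120 by edgeR), PPWD1 0.13, RANBP2, a nuclear pore protein, 0.08 (-0.029 without silenced replicate 2), CWC27 0.04 and PPIL3 -0.13.

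**Figure D3:**
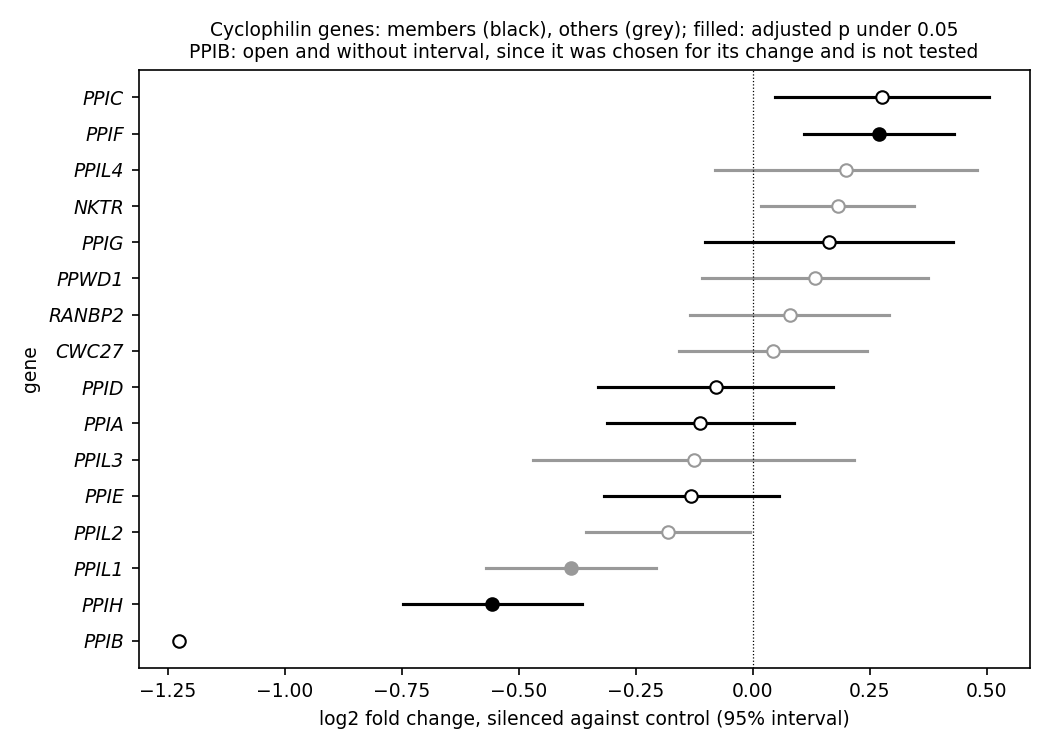
Log2 fold change of silenced against control cells (horizontal axis) for 16 cyclophilin genes, members in black and others in grey, with 95% intervals. PPIB stands apart at -1.23 and is drawn open without an interval because it is not tested; PPIH (-0.56), PPIL1 (-0.39) and PPIF (0.27) are filled, with an adjusted p under 0.05.

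The 5 genes whose log2 CPM over the 6 libraries followed PPIB most closely, among 12130 genes with a mean of at least 50 counts, were RPL10, MAF1, MAD2L2, PTPN1 and HMGN1. Their Pearson's r with PPIB lay between 0.997 and 0.999, as a description over 6 libraries that share the group difference. Of the other members, PPIH had the highest r with PPIB (0.98), and PPIC and PPIF had negative values (r = -0.89 and -0.88). These values carry the group difference of each gene in the same way.

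Further lists hold genes that work near each member. The lists were chosen with earlier results of these data known, so their counts of calls are a description and no test of the lists. Of 12 tested ER folding genes, 6 rose and 1 fell (edgeR, adjusted p under 0.05), against 8.75% and 8.27% of all tested genes, and their median log2 fold change was 0.26, where the log2 fold change of PPIB was -1.23. Without control replicate 3 the calls were 4, and 2 of the 7 calls held with any 1 library left out. HSP90B1 (GRP94), the HSP90 of the ER, rose by 0.66 and DNAJB11, a co-chaperone of BiP, by 0.67 on the log2 scale (adjusted p = 0.00185 and 0.00407), and both calls held with any 1 library left out. HSPA5, which encodes BiP itself, fell by 0.33 on the log2 scale (adjusted p = 0.0130), a call that was lost without silenced replicate 1 (adjusted p = 0.0715). HYOU1, PDIA6 and SDF2L1 were higher by 0.32, 0.34 and 0.26 on the log2 scale. HYOU1 missed the threshold without control replicate 2 (adjusted p = 0.0540), PDIA6 without control replicate 1 or 3 or silenced replicate 2, and SDF2L1 passed only in the fit without control replicate 1 among those that left out a library (adjusted p up to 0.0919 and 0.119 by edgeR).

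Of 14 tested genes for collagen modification and folding, 2 rose and 1 fell, with a median log2 fold change of 0.04. With 14 genes, 3 calls are near the background of 17.0% and are not read as a result about the list. CRTAP, the partner of PPIB in the prolyl 3-hydroxylation complex, had 253 ± 14.4 CPM in the control and 250.5 ± 16.2 CPM in the silenced libraries (SD, n = 3 each), and its log2 fold change was -0.02 (adjusted p = 0.907 by edgeR). The hydroxylase of that complex, listed as LEPRE1 (P3H1), had a log2 fold change of 0.22 (adjusted p = 0.0506 by edgeR). P4HA2 and PLOD2, which hydroxylate proline and lysine in collagen, rose by 0.56 and 0.51 on the log2 scale (adjusted p = 0.00467 and 0.00706 by edgeR) and passed with any 1 library left out. COLGALT1, which adds galactose to collagen, fell by 0.30 on the log2 scale (adjusted p = 0.0432) and, of the fits that left out a library, passed only in that without control replicate 2 (adjusted p up to 0.138 by edgeR).

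Of 16 tested FKBP and parvulin genes, the other families of prolyl isomerases, 3 rose and 2 fell, against 8.75% and 8.27% of all tested genes, with a median of -0.11 on the log2 scale. FKBP4, which binds HSP90, and FKBP9, an ER isomerase, fell by 0.35 and 0.41 (adjusted p = 0.00792 and 0.00707 by edgeR) and were called with any 1 library left out. FKBP10 (0.28), FKBP14 (0.37) and FKBP15 (0.33) rose. Without control replicate 3 the calls in this list went from 5 to 3. FKBP10 and FKBP14, both of the ER, lost the call without control replicate 3 or silenced replicate 3, FKBP10 also without control replicate 2 or silenced replicate 1, and FKBP15 without silenced replicate 1 (adjusted p up to 0.0578 for FKBP14, 0.0916 for FKBP10 and 0.0622 for FKBP15 by edgeR).

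For PPID, 4 of 10 tested HSP90 and co-chaperone genes fell and 0 rose (median -0.05), against 8.27% and 8.75% of all tested genes. CDC37, the kinase co-chaperone, fell by 0.83 and STIP1, which links HSP70 to HSP90, by 0.51 on the log2 scale (adjusted p = 2.33e-04 and 9.43e-04 by edgeR), both with any 1 library left out too, while AHSA1 (-0.28) kept the call only in the fit without silenced replicate 3 and STUB1 (-0.31) only in that without control replicate 3 (adjusted p up to 0.181 and 0.130). For PPIH and PPIE, 1 of 14 tested spliceosome genes passed (median -0.08), against 17.0% of all tested genes. PRPF3, of the same U4/U6 particle as PPIH, fell by 0.27 (adjusted p = 0.0244 by edgeR), and the call was lost whichever of the 6 libraries was left out (adjusted p from 0.0501 to 0.0812). PRPF4, to which PPIH binds, had -0.17 (adjusted p = 0.142 by edgeR).

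Around PPIF, 1 of 12 tested mitochondrial permeability genes rose and 4 fell, against 8.75% and 8.27% of all tested genes, and their median was -0.22 on the log2 scale, where PPIF was at 0.27. HK2, a hexokinase that docks on mitochondria, rose by 0.64, and ATP5B, a subunit of ATP synthase, and SLC25A4, an adenine nucleotide carrier, fell by 0.51 and 0.54 on the log2 scale (adjusted p = 0.00994, 0.00173 and 0.0152 by edgeR). These 3 passed with any 1 library left out, but VDAC3 (-0.27) kept the call only in the fit without silenced replicate 2 and TRAP1 (-0.23) only in that without control replicate 3 (adjusted p up to 0.154 and 0.109). Of 9 tested genes for the cyclophilin receptor and calcineurin, 3 rose and 1 fell (median 0.20), against 8.75% and 8.27% of all tested genes. BSG, the cell surface receptor for secreted PPIA and PPIB, was abundant at 1045 ± 69.7 CPM in the control and 1015 ± 82.4 CPM in the silenced libraries (SD, n = 3 each), and its log2 fold change was -0.04 (adjusted p = 0.771 by edgeR). RCAN1, a calcineurin inhibitor and target, rose by 0.57 (adjusted p = 0.00680 by edgeR) and passed with any 1 library left out, while the calcineurin subunit gene PPP3CB (0.36) and the calcineurin targets NFATC2 (0.54) and NFATC1 (-0.62) lost the call without control replicate 1 or 3 or silenced replicate 2 (adjusted p up to 0.0913, 0.0986 and 0.0665). PPP3CB also lost it without silenced replicate 1, and NFATC1 and NFATC2 without silenced replicate 3, and without control replicate 3 the list had 1 call. CRTAP, LEPRE1, PRPF4 and BSG are named for their known binding to a member and were picked after their values were seen.

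**Figure D4:**
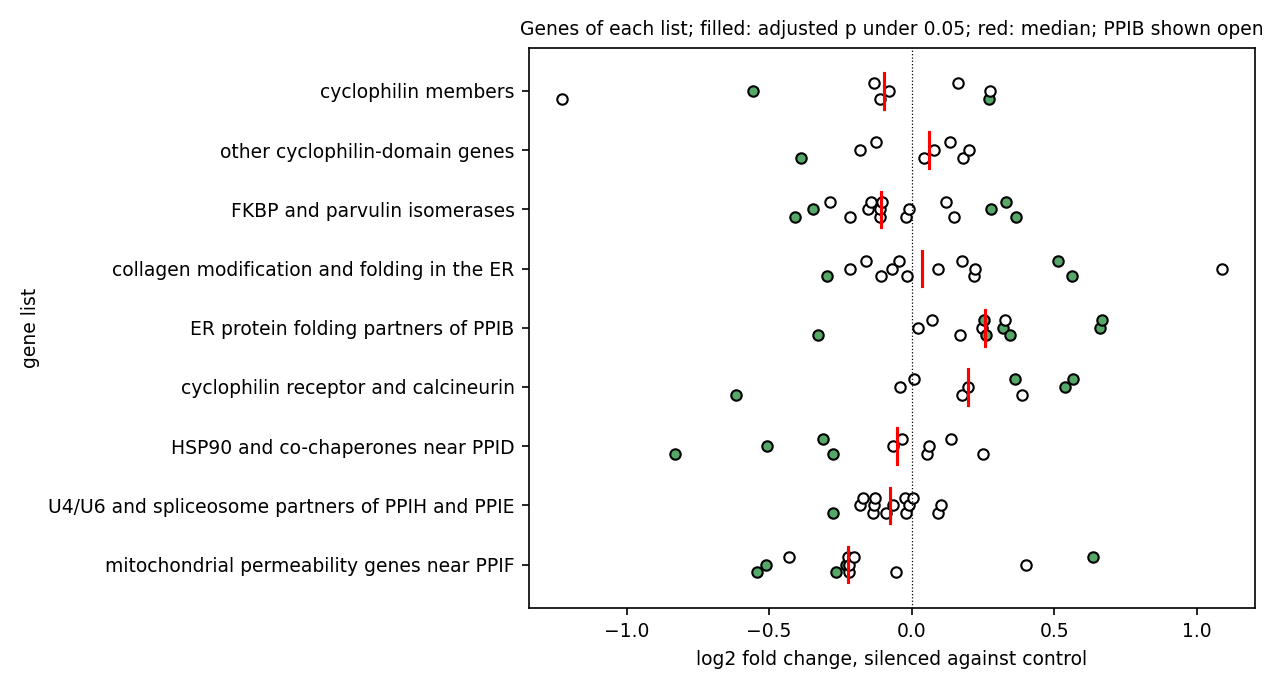
Log2 fold change of silenced against control cells (horizontal axis) for every tested gene of the 9 lists (rows), green where the adjusted p is under 0.05, with the median of each list in red. PPIB, open, lies below all other genes shown, and the ER folding genes lie mostly above 0 with a median of 0.26.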

How the data were processed

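Ion Proton RNA-Seq libraries were made from total RNA of A549 cells, and reads per gene were counted by the authors with MapSplice. Per the labels, the build was GRCh37. Annotation, strand setting and the treatment of reads with several matches are not given in the sources used here. The deposited values are raw counts of 40173 genes. Counts were filtered (filterByExpr), scaled (TMM) and tested with the quasi-likelihood F test of edgeR 4.0.16 in R 4.3.3, with Benjamini-Hochberg adjustment over 15250 genes and calls at an adjusted p under 0.05. The standard error is |log2 fold change| / sqrt(F), and 95% intervals use it. The code was tested on simulated data.

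Locations, lengths and 3′-UTRs were taken by symbol from GENCODE 29 on GRCh38 with Python 3.11.15. The principal transcript has the best APPRIS rank, both UTRs and then the greatest length. The members and gene lists were chosen with earlier results of these data known. Named genes were the members, all other tested cyclophilin genes, at most 6 called genes per further list by size of the log2 fold change, copies of a member with the most counts, genes that overlap a member and the 5 genes most like PPIB. With 3 libraries in each group, p = 0.1 is the smallest value that an exact permutation test of 1 gene allows. Alternatives were other scalings, filters and thresholds, DESeq2, a replicate block and fits that left out a library.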

Additional observations from a re-analysis of the deposited data

How the results depend on the processing

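PPIB stayed between -1.27 and -1.19 on the log2 scale under DESeq2 1.42.0, RLE scaling, unscaled library sizes, a filter of 1 count in all libraries together or of 10 counts in each, the replicate block and with any 1 library left out. PPIH passed under each of these 12 settings. Among members other than PPIB, 2 genes passed, 1 at an adjusted p under 0.01 and between 1 and 2 with a library left out. Among other cyclophilin genes, 1 passed, 0 at an adjusted p under 0.01 and between 0 and 1 with a library left out. RANBP2 ranged from -0.029 to 0.16 on the log2 scale with a library left out. Of all tested genes 2595 passed, 903 at an adjusted p under 0.01 and 1225 without silenced replicate 1.

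PPIA with its copies and the further lists without control replicate 3 were chosen after seeing the data. Library numbers were not taken to pair the samples: deviations from the group means correlated at 0.12, 0.13 and 0.06 for numbers 1, 2 and 3, although each library correlated best with its own number, a hint from the data only. With the replicate block, PPIB was at -1.23, 3449 of all genes passed, and no call among the cyclophilin genes changed.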
